A study of Mus musculus with 6 samples.

Results

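The genes described here were 9 of the 21851 protein-coding genes of the mouse annotation, chosen by name for their roles at the B cell receptor: Cd79a, Cd79b, Cd22, Cr2, Ms4a1, Syk, Blnk, Lyn and Plcg2. Peaks of H3K4me3 and H3K4me1 were taken within 5 kb of an annotated transcription start site (TSS), in the rest of the gene body, and 5 to 50 kb from a TSS outside the gene. The peaks came from Mint-ChIP, a form of chromatin immunoprecipitation in which barcoded samples are pooled before the antibody step, with 3 libraries for each mark. Every library was made from 50000 sorted germinal center (GC) B cells from spleens of wild-type mice that had received sheep red blood cells 8 days earlier. The labels call the cells GC Centrocytes, while the study's methods call them GC B cells. No mutant or untreated group belongs to the series, so the comparison it allows is between marks, and replicates 1 to 3 are separate libraries of 1 genotype whose source animals are not given, so that p-values measure the spread between libraries, which may be technical. One protocol label names an H3K27ac antibody. The marks used here follow the titles and the antibody labels.

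The B cell receptor is a membrane immunoglobulin that cannot signal alone. It passes the signal to the CD79A and CD79B chains, whose tyrosine motifs are phosphorylated by LYN and then bind SYK. SYK phosphorylates the adaptor BLNK, which brings in the phospholipase PLCG2 to release calcium, while CD21 (from Cr2) and CD20 (from Ms4a1) act at the membrane beside the receptor and CD22 restrains it. H3K4me3 is the histone mark typical of active promoters, and H3K4me1 is found more widely and is best known from enhancers.

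H3K4me1 lists held 11922 to 24136 peaks and H3K4me3 lists held 41936 to 46707, with H3K4me1 replicate 1 holding the most of its mark. The H3K4me1 lists were called narrow and the H3K4me3 lists broad, so each difference between the marks below is also a difference between calling modes, and these cannot be told apart. All 7 markers of GC B cells reported here, Bcl6 and S1pr2 among them, had promoter H3K4me3 in 3 of 3 libraries, and 6 had promoter H3K4me1 in 3 of 3. Of 4 T cell markers 1 did (Cd3d), and of 5 myeloid markers 1 did (Itgam), with no H3K4me1 peak at any of these 9 promoters. Cd3e, Cd8a, Lyz2 and Mpo had no promoter peak in any library, and the summed H3K4me3 length was 44.5 to 50.1 kb over the GC B cell markers against 0.486 to 1.61 kb over the T cell markers and 0.175 to 1.63 kb over the myeloid markers. All 4 naive B cell markers, 3 plasma cell markers and 3 red cell precursor markers had promoter H3K4me3 in 3 of 3 libraries, as did 1 of 4 markers of other tissues (Gfap). Their summed H3K4me3 length was 10.5 to 12.4 kb for naive B cell, 8.04 to 8.96 kb for plasma cell and 6.86 to 7.8 kb for red cell precursor markers. It was 0.812 to 1.68 kb for markers of other tissues. These marker counts are to be read beside all protein-coding genes, of which 56.2% had promoter H3K4me3 and 6.17% promoter H3K4me1 in 3 of 3 libraries. The part of other cells in the values that follow was not tested.

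Promoter sequence was available from RefSeq (GRCm38.p6) for 6 of the 9 genes in 7 windows of 300 bases, Syk having a window at the later of its first pair of starts and another at an internal start, and Cd22 a window at a start 1.31 kb into the gene. The letters CAGGTG, an E-box bound by E2A, were searched on both strands together with ATGCAAAT (octamer), CCCNNGGG (EBF1 core) and AGGAAGT (PU.1 core). CAGGTG stood in 7 of the 7 windows, whereas 20.2% of 32851 RefSeq promoter windows held it. The octamer, found in 1.74% of all windows, was present at Blnk, the PU.1 letters (9.35% of all windows) at Cd79a and Blnk, and the EBF1 letters (13.7% of all windows) at Cd22. A match is a run of letters and not a measured binding site. The windows printed are those that carry the shared E-box outside annotated exons, with CAGGTG or its reverse complement in capitals: Cd79a at chr7:24897247-24897380 (plus strand), Cr2 at chr1:195176717-195176969 (minus strand), Plcg2 at chr8:117498025-117498290 (plus strand) and the internal start of Syk at chr13:52596632-52596852 (plus strand). For Blnk, the 30 bases around the octamer are shown, at chr19:40994333-40994362 (minus strand), with the octamer in capitals. All are written 5′ to 3′ along the gene.
Cd79a promoter: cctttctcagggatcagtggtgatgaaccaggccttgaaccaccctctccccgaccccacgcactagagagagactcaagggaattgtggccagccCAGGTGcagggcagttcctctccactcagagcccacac
Cr2 promoter: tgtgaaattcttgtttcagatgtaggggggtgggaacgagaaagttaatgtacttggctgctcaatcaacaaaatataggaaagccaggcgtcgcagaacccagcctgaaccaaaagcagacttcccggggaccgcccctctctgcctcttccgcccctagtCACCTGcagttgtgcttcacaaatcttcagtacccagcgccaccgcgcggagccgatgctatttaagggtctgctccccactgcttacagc
Plcg2 promoter: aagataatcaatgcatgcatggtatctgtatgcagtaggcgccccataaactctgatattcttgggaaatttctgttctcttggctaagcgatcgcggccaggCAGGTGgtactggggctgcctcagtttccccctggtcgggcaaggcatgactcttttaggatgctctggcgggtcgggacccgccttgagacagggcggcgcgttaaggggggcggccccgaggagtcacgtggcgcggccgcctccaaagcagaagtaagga
Syk internal promoter: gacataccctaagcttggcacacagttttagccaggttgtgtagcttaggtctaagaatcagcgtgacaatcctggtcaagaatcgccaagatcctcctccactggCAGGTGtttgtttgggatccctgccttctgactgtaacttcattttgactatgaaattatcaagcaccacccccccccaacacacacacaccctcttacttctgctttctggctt
Blnk octamer: tactggaagggATTTGCATgcccaataagg
The windows differed in CpG content. The first Syk window had 31 CpG dinucleotides, Plcg2 21, Cr2 14, Cd79a 8, Blnk 7, Cd22 4 and the internal start of Syk 2, where the median over all windows was 7 with quartiles of 3 and 20.

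H3K4me3 peaks were present within 5 kb of a TSS at 9 of 9 genes in 3 of 3 libraries, against 56.2% of all protein-coding genes, and covered a TSS itself at 9 of 9, against 38.5%. H3K4me1 peaks within 5 kb were present in 3 of 3 libraries at 5 of 9 genes (Cd79a, Cd22, Syk, Blnk and Lyn), against 6.17% of all genes and 11% of the 12273 genes with promoter H3K4me3 in 3 of 3 libraries. The same 5 genes had both marks in 6 of 6 libraries, against 6.16% of all genes. None of the 9 had an H3K4me1 peak over a TSS in 3 of 3 libraries, which 0.0275% of all genes had. H3K4me3 peaks covered more of the promoter window than H3K4me1 peaks in every library at 9 of 9 genes, against 55.7% of all genes, and the reverse was seen at 0% of genes. That share is 12180 genes, nearly all of the 12273 with promoter H3K4me3 in 3 of 3 libraries. The order of the marks is therefore not particular to the 9 genes. The median covered share of the window over the 9 genes was 61% for H3K4me3, from 20.5% at Cr2 to 87.6% at Blnk, beside a median of 9.04% over all genes. For H3K4me1 the same median was 3.81%, from 0.997% at Cr2 to 12.5% at Blnk, beside a median of 0 over all genes. The exact permutation test over 20 assignments of libraries to marks gave a two-sided p of 0.1 (n = 3 per mark) for each gene, the smallest p this design allows, so none can pass 0.05.

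**Figure D1:**
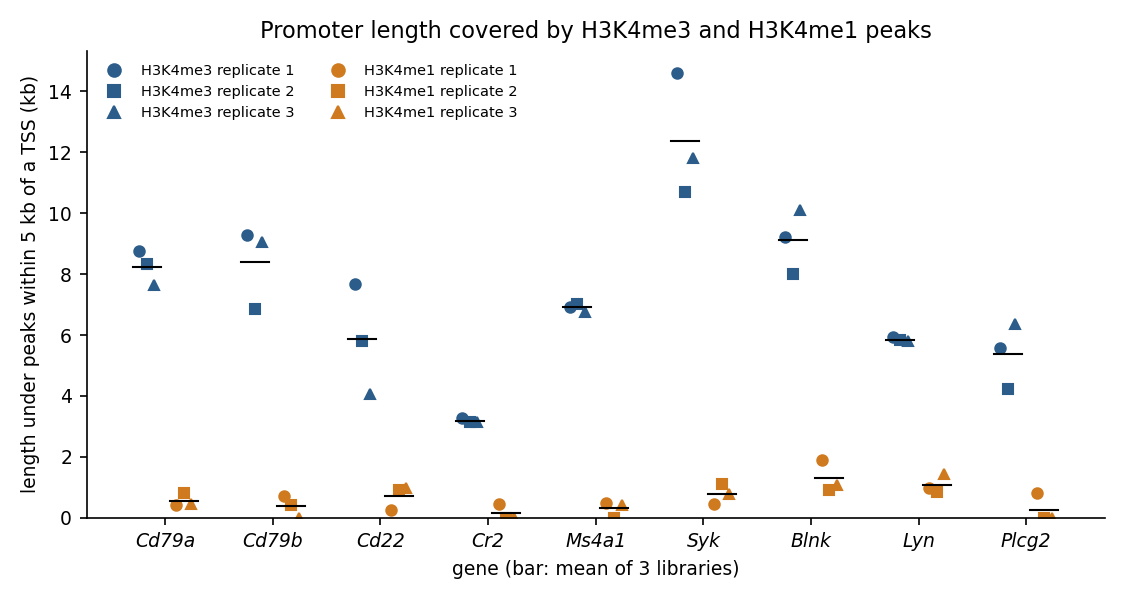
Length under peaks within 5 kb of any TSS of each gene (y axis, kb) for 3 H3K4me3 libraries (blue) and 3 H3K4me1 libraries (orange), with a bar at the mean. The H3K4me3 points of each gene lie above all its H3K4me1 points, with Cr2 lowest at 3.15 to 3.27 kb and Syk, whose window joins 2 start regions, highest at 10.7 to 14.6 kb.

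The order of the marks depended on how strong peaks were chosen. When the lists were limited to the 10000 peaks with the best p-values in each library, Cd22, Ms4a1 and Blnk kept promoter H3K4me3 in 3 of 3 libraries (23.8% of all genes did), Cd22, Blnk and Lyn kept promoter H3K4me1 (3.57%), and the difference in covered length turned to −0.417 kb at Cd79a, −0.138 kb at Cd79b, −0.0683 kb at Cr2 and −0.156 kb at Plcg2. That limit keeps most of H3K4me1 replicate 3, with 11922 peaks, and a smaller part of the H3K4me3 lists, with 41936 to 46707. At a −log10 q-value of at least 5, 6 of 9 genes kept promoter H3K4me3, against 34.9% of all genes, and Cd79b, Cr2 and Plcg2 did not. Promoter H3K4me1 was then found at Cd22 and Blnk, 2 of 9 genes against 0.503%. The mean difference in covered length at that q-value stayed positive at each gene, from 1.71 kb at Cr2 to 8.63 kb at Blnk.

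Cd79a and Cd79b encode the signalling chains of the receptor. Cd79a (ENSMUSG00000003379.7, chr7:24897381-24902197, plus strand) is short enough to lie wholly inside its promoter window. H3K4me3 covered 8.75, 8.33 and 7.63 kb of its 10 kb window in replicates 1, 2 and 3, and H3K4me1 covered 0.421, 0.804 and 0.447 kb. The H3K4me3 libraries lay close together, and the difference between means was 7.68 ± 0.348 kb (SE). Its widest H3K4me3 peak measured 9.92, 6.68 and 5.56 kb, so that the width varied more than the covered length. The peak of replicate 1 also covered the start of the neighbour Arhgef1, and that of replicate 3 covered the start of Arhgef1 and not that of Cd79a, over which the peak measured 4.35 kb. H3K4me1 near Cd79a lay to the side of the start, in a region centred at −4.06 kb, upstream, that was called in all 3 libraries without a base common to the 3 peaks. Cd79b (ENSMUSG00000040592.11, chr11:106311341-106314762, minus strand) had 9.29, 6.86 and 9.05 kb under H3K4me3 and 0.709, 0.413 and 0 kb under H3K4me1, a difference of 8.03 ± 0.8 kb (SE). H3K4me1 was thus missing from the third library there. The widest Cd79b peak measured 11.4, 11.8 and 7.41 kb, and its mean of 10.2 ± 2.41 kb (SD, n = 3) ranked 33 from the widest among 12273 genes. In all 3 libraries this peak ran across the whole 3422 bp gene.

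Among membrane partners, Ms4a1 and Cr2 stood at opposite ends. Ms4a1 (ENSMUSG00000024673.9, chr19:11249675-11266241, minus strand), the gene of CD20, had 1 promoter H3K4me3 peak in each library, covering 6.92, 7.03 and 6.76 kb of the window. It was among the most even of the 9 genes, with 93.7% of the covered length shared by the 3 libraries, where the median over 12273 genes was 57.7%. H3K4me1 covered 0.494, 0 and 0.431 kb, and the difference was 6.6 ± 0.174 kb (SE). Cr2 (ENSMUSG00000026616.15, chr1:195136811-195176716, minus strand), which encodes the complement receptors CD21 and CD35, had 3.27, 3.16 and 3.15 kb under H3K4me3. H3K4me1 was found in replicate 1 alone, at 0.465 kb, with 0 kb in replicates 2 and 3, and the difference was 3.04 ± 0.16 kb (SE). The H3K4me3 of Cr2 was the narrowest of the 9 genes by width, 2.75 ± 0.342 kb (SD, n = 3), and it was absent from an annotated start 5.55 kb into the gene in every library. Cd22 (ENSMUSG00000030577.14, chr7:30865402-30880342, minus strand), an inhibitory lectin, was the least even. H3K4me3 covered 7.67, 5.81 and 4.08 kb and H3K4me1 0.273, 0.916 and 0.98 kb, with a difference of 5.13 ± 1.06 kb (SE). Of its H3K4me3 length 37.6% was shared by the 3 libraries, and the shared stretch ran from −1.03 to 2.3 kb around the outermost start. Cd22 was also the 1 gene where an H3K4me1 peak lay over an annotated start in more than 1 library, in replicates 1 and 3.

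Lyn and Syk are the kinases that begin the cascade. Lyn (ENSMUSG00000042228.14, chr4:3678115-3813122, plus strand) had 5.92, 5.83 and 5.8 kb under H3K4me3 and 0.975, 0.848 and 1.45 kb under H3K4me1, a difference of 4.76 ± 0.185 kb (SE). Its H3K4me3 was the most alike between libraries, with 97.9% of the covered length shared, and the most lopsided, with 85.7% of it downstream of the start, where the median over 12119 genes with H3K4me3 cover was 60.4%. Both values are read from a window that ends 5 kb from the start, and the downstream side of Lyn was fully covered in each library. Within 5 kb of the start, H3K4me1 peaks at Lyn lay mainly in an intron under this H3K4me3 peak, which continued to 7.26 kb past the start in all libraries. Syk (ENSMUSG00000021457.14, chr13:52583173-52648792, plus strand) had 14.6, 10.7 and 11.8 kb under H3K4me3 and 0.44, 1.11 and 0.771 kb under H3K4me1, a difference of 11.6 ± 1.16 kb (SE) over a 20.3 kb window. Its starts differed. The first start, next to the CpG-rich window, was covered in H3K4me3 replicates 1 and 3, by peaks of 7.58 and 2.52 kb with fold enrichments of 4.97 and 4.68, and was not covered in replicate 2, where a peak with a fold enrichment of 4.91 ended 23 bp before it and another, of 6.07, began 474 bp past the next start. The internal start, 13.7 kb into the gene and poor in CpG, was covered in 3 of 3 libraries by peaks of 11, 11.5 and 7.26 kb with fold enrichments of 6.12, 6.06 and 6.18.

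Blnk and Plcg2 stand downstream as adaptor and enzyme. Blnk (ENSMUSG00000061132.13, chr19:40928927-40994535, minus strand) had 9.22, 8.01 and 10.1 kb under H3K4me3, and 1.9, 0.908 and 1.08 kb under H3K4me1, the largest mean H3K4me1 length of the 9 genes. The difference was 7.81 ± 0.676 kb (SE). Its H3K4me3 spread to both sides of the start more evenly than at the other genes, with 54.6% downstream. Plcg2 (ENSMUSG00000034330.10, chr8:117498291-117635142, plus strand) had 5.59, 4.22 and 6.36 kb under H3K4me3, and H3K4me1 in replicate 1 alone, at 0.814 kb. The difference was 5.12 ± 0.682 kb (SE). The H3K4me3 peak over the Plcg2 start was shorter in replicates 2 and 3 than in replicate 1, and 44.9% of the covered length was common to the 3 libraries.

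**Figure D2:**
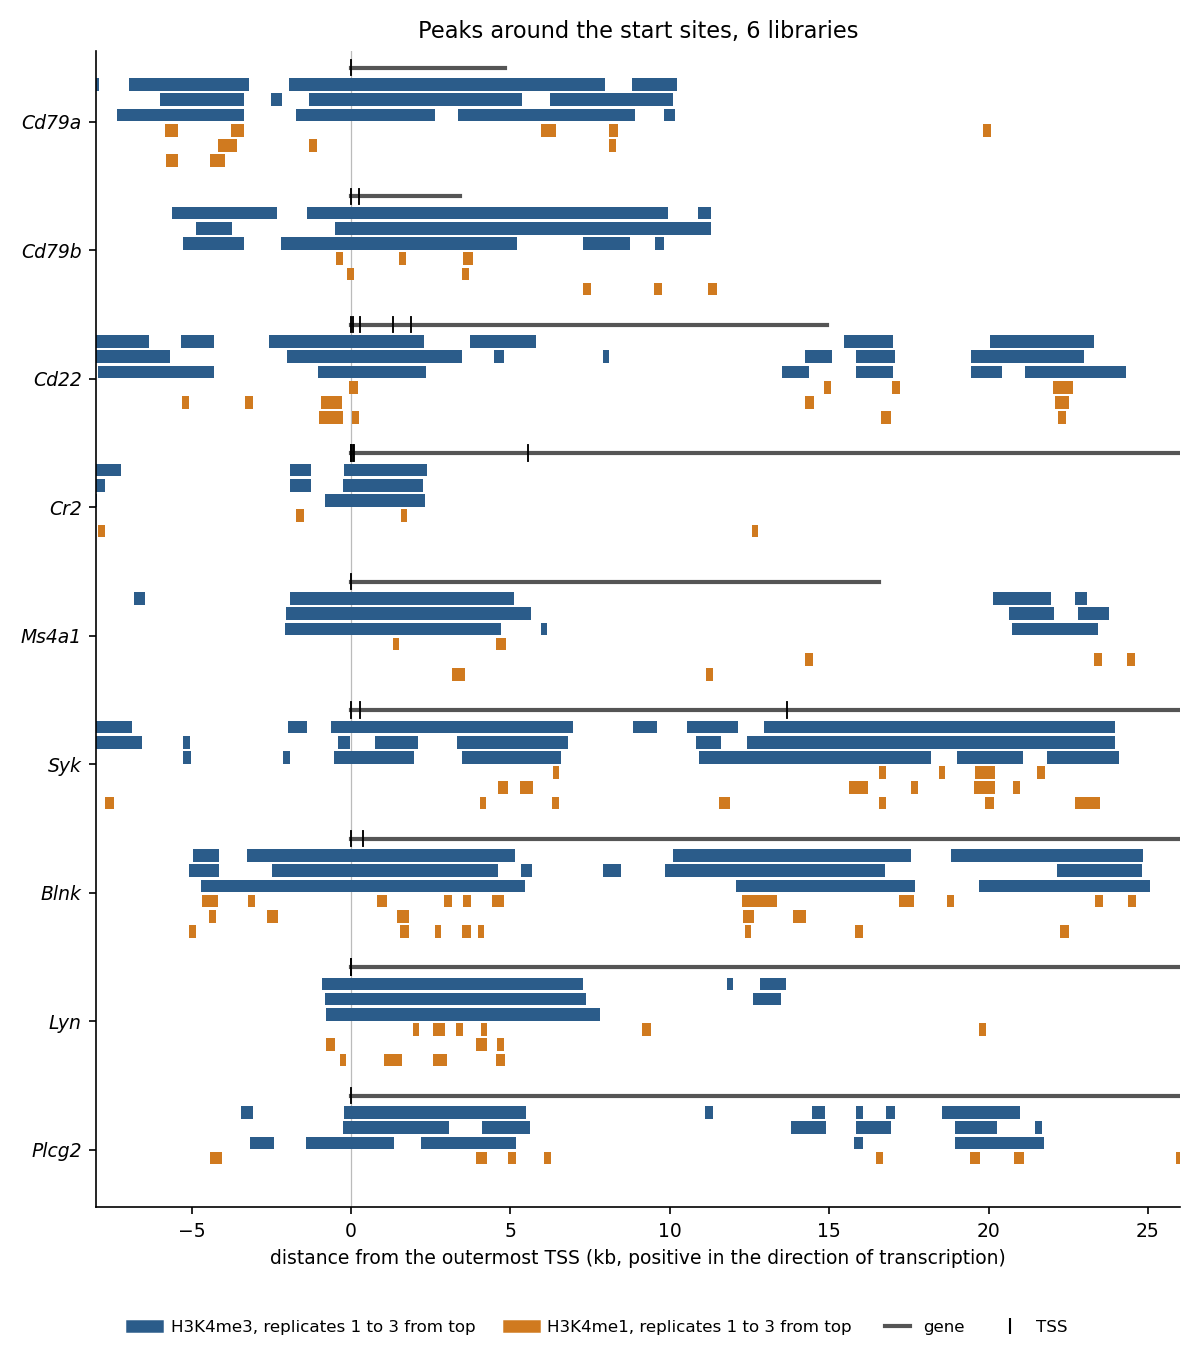
Peaks of the 6 libraries from 8 kb before to 26 kb after the outermost TSS (x axis, kb along transcription), with H3K4me3 rows in blue and H3K4me1 rows in orange, replicates 1 to 3 from top, the gene as a grey line and TSSs as ticks. Blue blocks span the start of each gene except Syk in replicate 2, and orange blocks are short and mostly beside the start.

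The 9 genes ranked high by the width of their promoter H3K4me3 peaks and not by fold enrichment. Among 12273 genes with promoter H3K4me3 in 3 of 3 libraries the widest promoter peak, averaged over libraries, had a median of 1.9 kb with quartiles of 1.36 and 2.56 kb and a 90th percentile of 3.66 kb. The median over the 9 genes was 7.39 kb, with 9 of 9 above the upper quartile and 8 of 9 above the 90th percentile. Mean width was 9.93 ± 2.33 kb at Syk, 8.56 ± 1.54 kb at Blnk, 8.31 ± 0.238 kb at Lyn, 7.39 ± 2.26 kb at Cd79a and 7.15 ± 0.464 kb at Ms4a1 (SD, n = 3). It was 4.67 ± 0.944 kb at Cd22 and 4.01 ± 1.47 kb at Plcg2 (SD, n = 3), and these 2 genes overlapped within their spread. In replicate 3 the widest Cd22 peak, 3.64 kb, lay upstream of the starts, and the peak over them measured 3.38 kb. The widest Plcg2 peak of replicate 3, 3 kb, lay downstream of the start, over which the peak measured 2.78 kb. Cr2, which ranked 2519 from the widest, was below the 90th percentile.

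**Figure D3:**
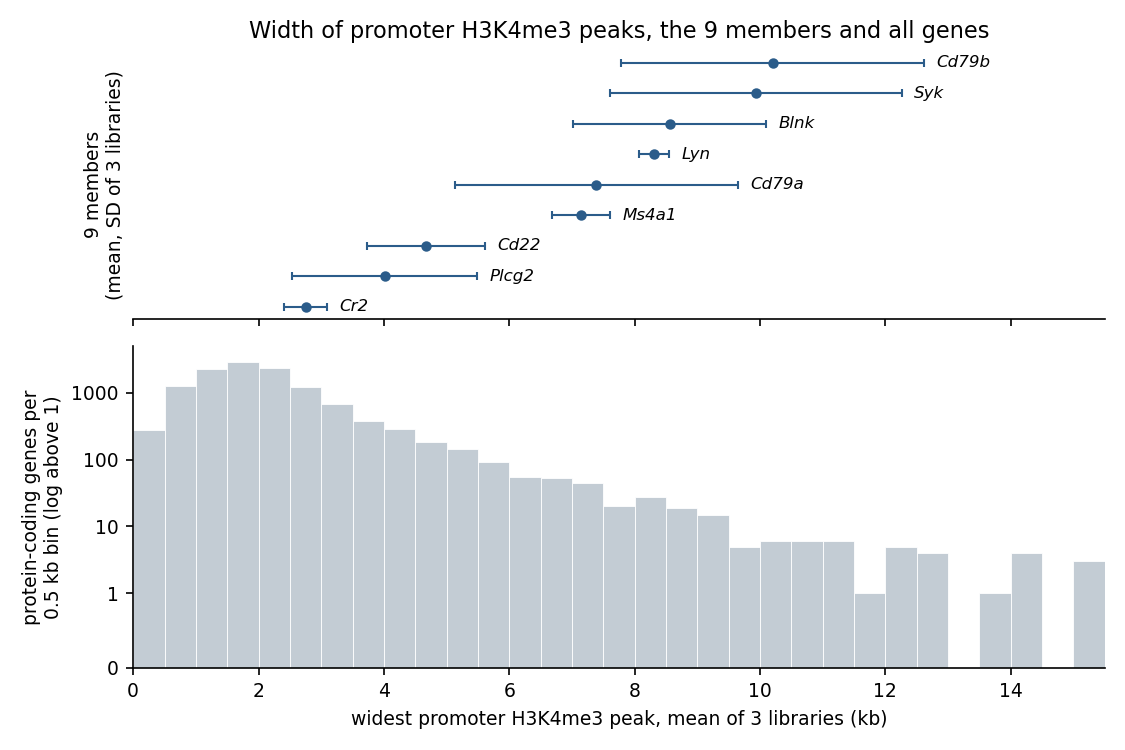
Upper panel, mean width of the widest promoter H3K4me3 peak of each of the 9 genes with its SD over 3 libraries. Lower panel, number of genes per 0.5 kb of the same width over 12273 genes, on an axis that is logarithmic above 1, whose median is 1.9 kb while 8 of the 9 genes lie above 3.66 kb.

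Fold enrichment, which in broad lists of this layout is an average over the peak, placed the same promoters lower. The highest fold enrichment among the promoter peaks of a gene, averaged over libraries, had a median of 6.4 over the 12273 genes and 5.83 over the 9 genes. Blnk was highest at 8.36, 9.06 and 7.37 in replicates 1, 2 and 3, above 87.1% of genes. Cd22 reached 6.86, 6.94 and 7.38, and Ms4a1 reached 6.8, 6.68 and 6.72. These 3 genes were above the median over all genes, and the other 6 were below it. Cd79b, the widest by peak, had 5.49, 4.88 and 5.39, above 22.2% of genes, and Plcg2 was lowest at 5.32, 4.85 and 5.25. No gene of the 9 was above the 90th percentile of 8.57.

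**Figure D4:**
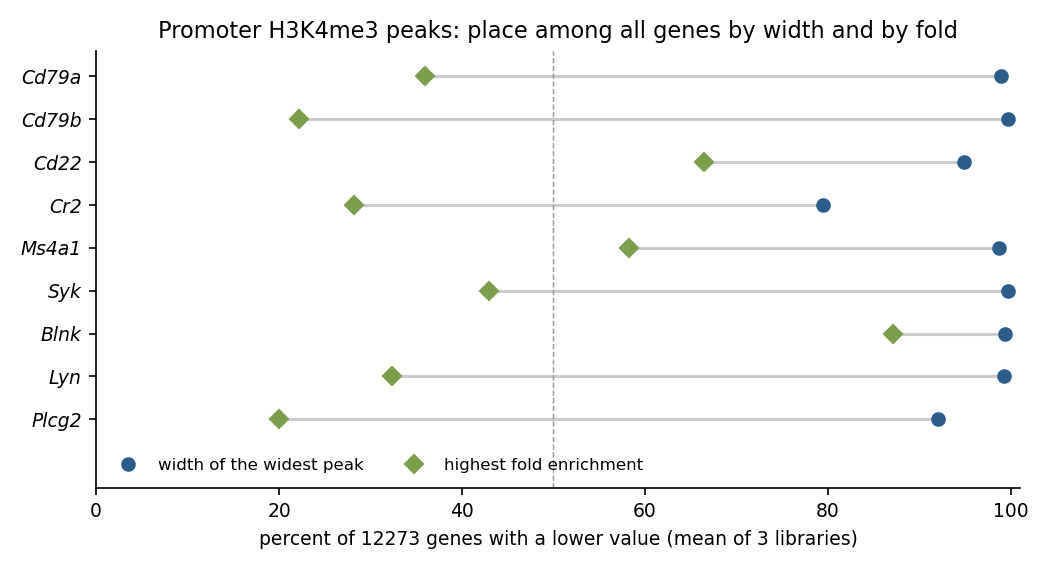
For each of the 9 genes, the percent of 12273 genes with a lower value (x axis) by width of the widest promoter H3K4me3 peak (circles) and by highest promoter fold enrichment (diamonds), each a mean of 3 libraries. Circles lie between 79.5 and 99.7 and diamonds between 20 and 87.1.

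Beyond the promoter window, H3K4me3 peaks reached into the gene body in 3 of 3 libraries at 5 of the 7 genes that extend that far (Ms4a1, Syk, Blnk, Lyn and Plcg2), against 27% of 16746 genes. H3K4me1 did so at 4 of 7 (Syk, Blnk, Lyn and Plcg2), against 8.77% of genes. At a −log10 q-value of at least 5 the H3K4me3 count was 3 of 7 (10.6% of genes) and the H3K4me1 count 0 of 7 (1.9%), and with the 10000 best peaks they were 1 of 7, Plcg2 (6.36%), and 4 of 7 (6.2%). By peak midpoint the H3K4me3 count was 3 of 7, a setting for which no share over all genes was computed. By length Plcg2 had the most, with 20.4, 18.6 and 15.1 kb under H3K4me3 in its body and 4.79, 1.89 and 0.576 kb under H3K4me1. Blnk had 17.7, 13 and 14.8 kb under H3K4me3 and 3.01, 1.14 and 0.751 kb under H3K4me1, and Lyn had 17.3, 12 and 11.9 kb and 3.46, 0.568 and 1 kb. In each of these 3 bodies H3K4me1 replicate 1, the library with the most peaks, was well above replicates 2 and 3. Syk was steadier, with 6.97, 6.8 and 5.67 kb under H3K4me3 and 1.54, 1.49 and 1.26 kb under H3K4me1. The body windows differ in length, from 8.05 kb at Cd22 to 132 kb at Plcg2. By mean share of the window under H3K4me3 Blnk was highest at 25.2%, with Plcg2 at 13.7%, Syk at 12.9% and Lyn at 10.6%. Under H3K4me1 Syk was highest at 2.84%. Stretches of at least 1 kb common to all 3 H3K4me3 libraries lay in the part of the gene nearer the start. In Plcg2 the longest ran from 27.5 to 34.1 kb past the TSS, in Blnk from 12.1 to 16.7 kb, and in Syk the last ended at 24 kb. Cd22, Cr2 and Ms4a1 had less than 1 kb under H3K4me3 in the body in every library. The Ms4a1 count above rested on 0.115, 0.634 and 0.193 kb in replicates 1, 2 and 3. In replicates 1 and 2 this was the edge of its promoter peak.

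**Figure D5:**
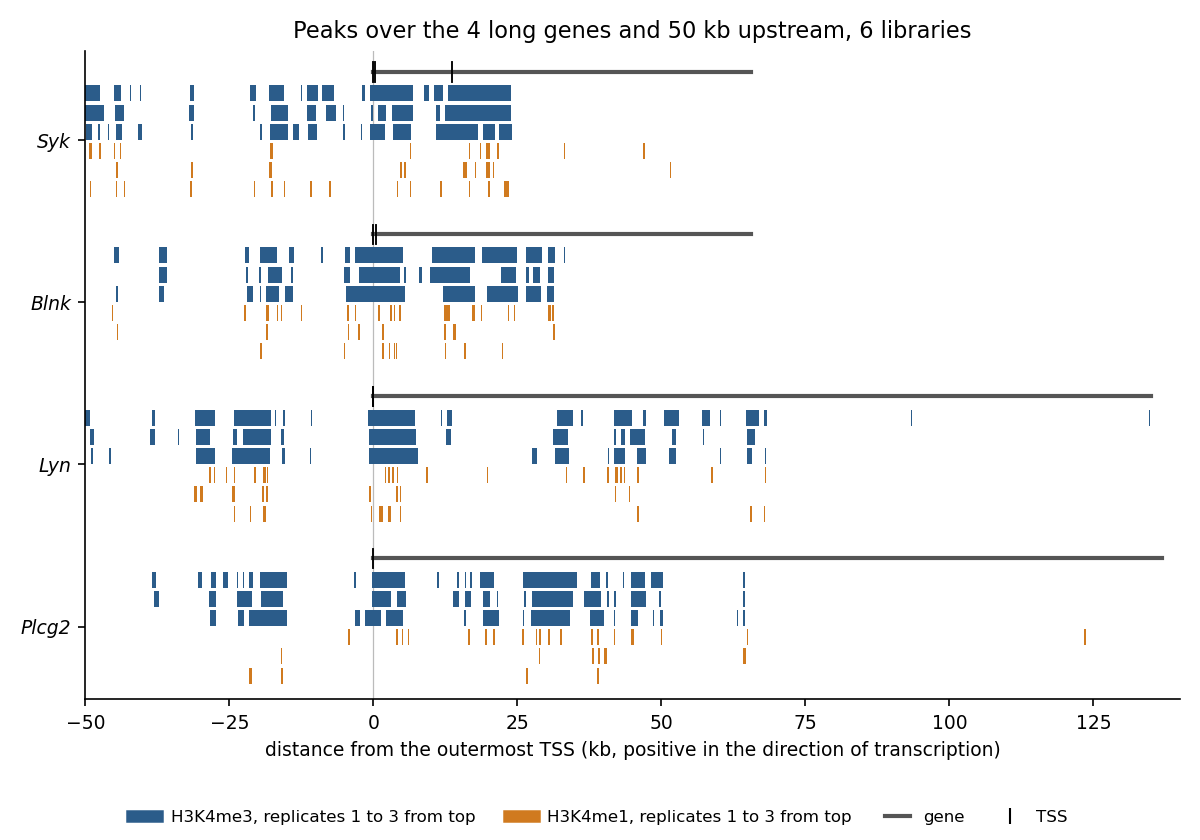
Peaks from 50 kb before to 140 kb after the outermost TSS (x axis, kb along transcription) of Syk, Blnk, Lyn and Plcg2, with H3K4me3 in blue, H3K4me1 in orange and replicates 1 to 3 from top. Blue blocks recur in the same places in the 3 libraries, in the first part of each gene and upstream of it, and both marks are sparse in the last part of the gene.

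At 5 to 50 kb from a start, 9 of 9 genes had H3K4me3 in 3 of 3 libraries, against 60.5% of genes, and 8 of 9 had H3K4me1, against 20.5%. Plcg2 was the exception, with 0, 1 and 2 H3K4me1 peaks there. At a −log10 q-value of at least 5 these counts were 7 of 9 (43.1% of genes) and 1 of 9, Cr2 (2.64%), and with the 10000 best peaks they were 3 of 9 (33.1%) and 6 of 9 (13.5%). Cd22 had the most H3K4me3 at this distance, 23.7, 18.4 and 19.8 kb, while Blnk, with 7.04, 4.99 and 6.17 kb, and Ms4a1, with 7.64, 6.21 and 5.12 kb, had the lowest means and overlapped each other. The windows differ in length, 45 kb at Blnk and 82 kb at Cd22. Not all of these peaks are nearest to the gene itself. All 14 such H3K4me3 peaks around Cd79a in the 3 libraries were nearest to a start of Arhgef1, Rps19, Gm4881 or Gm9844, and 14 of 15 around Ms4a1 were nearest to its family members Ms4a5, Ms4a12 or Ms4a14. All 20 around Lyn and all 15 around Plcg2 were nearest to the gene itself, as were 13 of 16 around Cr2 and 15 of 29 around Syk. The 3 libraries shared 4.73 kb upstream of Lyn, from −22.7 to −17.9 kb, 3.76 kb upstream of Plcg2, from −19.5 to −15.7 kb, and 2.76 kb upstream of Cr2, from −28 to −25.2 kb.

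H3K4me1 peaks at the 9 genes numbered 111, 60 and 59 in replicates 1, 2 and 3 and rested on few reads, with a median of 6 fragments at the summit in each library and at most 15. Of these peaks 80.2%, 83.3% and 91.5% overlapped H3K4me3 peaks of at least 2 libraries, beside 71.7%, 72.6% and 76.7% of all H3K4me1 peaks. Of the promoter peaks, 2 of 24, 1 of 15 and 2 of 16 had summits under 0.5 kb from a TSS. That stretch is a small part of a window reaching 5 kb to each side, and no share over all genes was computed. These counts therefore do not show whether summits kept away from the start. Merged over libraries, the peaks formed 177 regions, of which 132 were found in 1 library, 37 in 2 and 8 in 3. The 4.52% found in all 3 libraries was near the 4.68% of 39388 regions over the genome. No base within 5 kb of a start was under H3K4me1 peaks of all 3 libraries at any of the 9 genes, and the median shared percent was also 0 over the 7496 genes with H3K4me1 in the window.

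The 8 regions found in every library lay upstream of Cd79a, downstream of Cd22, upstream of Syk and in its intron, in an intron of Blnk, at a pair of sites upstream of Lyn and in an intron of Plcg2, and all 8 overlapped H3K4me3 in 3 of 3 libraries. At the Blnk site, 12.4 kb past the start, the summits held 10, 8 and 8 fragments in replicates 1, 2 and 3, with fold enrichments of 7.72, 6.75 and 6.15. The Syk upstream site, at −17.7 kb from the first start, held 9, 9 and 6 fragments. The Lyn site at −19.1 kb held 15, 8 and 7 fragments. The Plcg2 site, 39.1 kb past the start, held 8, 7 and 7. The Cd22 site, 22.4 kb past the start and beyond the end of the gene, held 5, 9 and 5 fragments and was nearest to the start of Ffar3. It was the 1 of 7 searched regions with the EBF1, PU.1 and E-box letters together, each in capitals in its sequence. Those letters are found in 7.06%, 13% and 22% of 49979 windows of 300 bases around H3K4me1 summits. The 300 bases centred on these recurrent sites are printed for Cd22 at chr7:30857884-30858183 (minus strand), Blnk at chr19:40981919-40982218 (minus strand) and Syk at chr13:52565332-52565631 (plus strand), from GRCm38.p6 and along the gene. The Blnk and Syk stretches held none of the 4 motifs and are in lower case throughout.
Cd22 downstream site: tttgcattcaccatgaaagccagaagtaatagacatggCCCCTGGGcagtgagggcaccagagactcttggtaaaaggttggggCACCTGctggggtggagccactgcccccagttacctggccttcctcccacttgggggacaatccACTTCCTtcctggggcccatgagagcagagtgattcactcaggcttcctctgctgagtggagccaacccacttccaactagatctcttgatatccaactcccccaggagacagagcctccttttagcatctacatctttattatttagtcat
Blnk intron site: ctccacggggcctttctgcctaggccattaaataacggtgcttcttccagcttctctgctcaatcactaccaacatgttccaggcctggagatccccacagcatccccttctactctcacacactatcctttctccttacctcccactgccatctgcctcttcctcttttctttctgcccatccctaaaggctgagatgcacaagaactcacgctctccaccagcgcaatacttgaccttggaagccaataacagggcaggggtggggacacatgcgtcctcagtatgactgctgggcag
Syk upstream site: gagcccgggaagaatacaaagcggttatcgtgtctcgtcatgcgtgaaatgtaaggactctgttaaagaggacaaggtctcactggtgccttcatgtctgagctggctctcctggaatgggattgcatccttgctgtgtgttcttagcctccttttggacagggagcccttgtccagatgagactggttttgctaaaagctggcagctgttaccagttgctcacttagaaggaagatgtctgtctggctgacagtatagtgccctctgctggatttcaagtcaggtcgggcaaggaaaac

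Other genes of B cell receptor signalling were examined as a list of 52. Promoter H3K4me3 was present in 3 of 3 libraries at 50 of 52 and promoter H3K4me1 at 26 of 52, to be read beside 56.2% and 6.17% of all genes. The 2 without H3K4me3 in 3 libraries were Pirb, an inhibitory receptor with no promoter peak of either mark, and Cd5, a negative regulator of antigen receptor signalling, with H3K4me3 in 2 libraries. By group, H3K4me3 in 3 of 3 libraries was found at 10 of 12 coreceptors and inhibitory receptors, 6 of 6 kinases, 8 of 8 inhibitors, 14 of 14 adaptors and exchange factors and 12 of 12 downstream genes. H3K4me1 in 3 of 3 libraries was found at 3, 3, 5, 10 and 5 genes of these groups. The 10 genes with H3K4me1 in every library and the longest mean H3K4me3 cover of the promoter window were Csk, a kinase that restrains Src family kinases, at 13.2 ± 0.585 kb, the adaptor Grb2 at 12.5 ± 2 kb and Nfatc1, a calcium-driven transcription factor, at 11.7 ± 0.658 kb (SD, n = 3), followed by Pik3cd, Rasgrp3, Ptpn6, Blk, Vav1, Sh3bp2 and Fcrla at 6.66 to 11.4 kb. This cover is summed over a window that grows with separate starts, and the widest peaks measured 8.62 kb at Csk, 5.66 kb at Grb2 and 7.82 kb at Nfatc1. The widest single promoter peaks of the list were those of the kinase Blk at 10.3 ± 0.16 kb, the lipid kinase subunit Pik3cd at 9.69 ± 2.19 kb and the exchange factor Rasgrp3 at 8.85 ± 3.3 kb (SD, n = 3). Of the 50 genes with H3K4me3 in every library 46% were wider than the 90th percentile of the 12273 genes. Wide H3K4me3 was therefore also found at many of the other signalling genes. It was not particular to signalling, as 5 of the 7 GC B cell markers (71.4%) were above that percentile too.

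Of 13 counterparts in T cell receptor signalling, 6 had promoter H3K4me3 in 3 of 3 libraries and 2 had promoter H3K4me1 in 3 of 3, Lck and Plcg1, beside 56.2% and 6.17% of all genes. Of the CD3 chain genes, which fill the place of Cd79a and Cd79b in T cells, Cd3e had no promoter peak of either mark, Cd3g had H3K4me3 in 1 library and Cd3d had it in 3, over 0.935 kb. Zap70, the counterpart of Syk, had 0.634 kb under H3K4me3 and none under H3K4me1, and Lat and Lcp2, which act as adaptors, had 0.882 and 2.43 kb. Lck, which T cells use where B cells use Lyn, had 9.68 kb under H3K4me3, a longer cover than at Lyn, and Plcg1, the paralog of Plcg2, had 0.932 kb (means of 3 libraries). Covered length is summed over a window that grows with separate starts. By widest promoter H3K4me3 peak the order was reversed, with 4.13 ± 1.54 kb at Lck and 8.31 ± 0.238 kb at Lyn (SD, n = 3). Lck was the 1 gene of this list within the range of the 9 genes in covered length, 3.19 to 12.4 kb.

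Over the 3 windows and 6 libraries together (18 values per gene, on a log scale of covered length), the protein-coding genes nearest to the median profile of the 9 were Arhgap8, Brwd1, Bin2, Cep170 and Irf2bp2, at Euclidean distances of 1.09, 1.13, 1.13, 1.14 and 1.15. The 9 genes themselves lay at 0.939 (Cd22) to 3.62 (Plcg2) from that profile.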

How the data were processed

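Mint-ChIP peak lists of H3K4me1 and H3K4me3 were used, 3 libraries per mark, and libraries were grouped by the mark in their titles. The authors called peaks in each library and deposited, for each peak, the fold enrichment (a linear ratio over background) with its p-value and q-value, both as −log10. The H3K4me1 lists also hold the summit as an offset, a number given by the authors under no scale. Per the labels, BWA, Picard, HOMER and Genrich were used with the mm10 build. The versions, caller settings and control are not given in the sources used here, and the layout of the lists is that of MACS2.

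Peaks were joined to 41438 TSSs of 21851 protein-coding genes (GENCODE M21 basic, GRCm38) with Python 3.11.15, numpy 2.4.6 and scipy 1.17.1, and an overlap was at least 1 bp. A peak reaching both the promoter window and the rest of the gene counted in both. The 9 genes and all lists were chosen with earlier results of these data known. From the pathway list, genes lacking promoter H3K4me3 in any of 3 libraries, up to 10 with H3K4me1 in 3 of 3 by the longest mean covered length, and the 3 widest are named. Lck and the other T cell genes given with values were chosen after their values were seen. Ighd and Trac of the marker lists were not analysed here. A further GC B cell marker is not reported here. Covered length was compared between marks with a two-sided exact permutation test over 20 assignments, and shares of all genes serve as the background. Whole fragments at H3K4me1 summits followed from fold enrichment and p-value under a Poisson model, within 0.0005 of the −log10 p-value, for 100% of peaks. Read depth per library is unknown. The code was tested on simulated peaks. Alternatives were a 1 kb promoter distance, a −log10 q-value of at least 5, the 10000 best peaks, the peak midpoint, nearest start, merging within 1 kb, leaving out each library and a replicate block.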

Additional observations from a re-analysis of the deposited data

How the results depend on the processing

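Of 177 alternative values, 4 changed direction and 17 counts or widths moved by more than 1.5 times or 1 SD. The differences in covered length cannot pass the threshold, so they were judged by direction alone, which 86 of 90 kept, with values from −0.417 to 12.4 kb. Many of the 90 could not change direction. Every H3K4me3 library lay above every H3K4me1 library at each gene, so leaving out 1 library cannot reverse a difference. Pairing libraries does not alter it. Only the q-value, 10000-peak and 1 kb settings could reverse it, and all 4 reversals came with the 10000 best peaks. With the 10000 best peaks per library, the difference in covered length within 5 kb (H3K4me3 minus H3K4me1) was −0.417 kb at Cd79a, −0.138 kb at Cd79b, −0.0683 kb at Cr2 and −0.156 kb at Plcg2. Genes with H3K4me3 in 3 of 3 libraries numbered 3 at promoters, 1 in the body and 3 at 5 to 50 kb under that limit, and 3 had promoter H3K4me1. At a −log10 q-value of at least 5, 3 genes had H3K4me3 in the body, and H3K4me1 counts were 2 at promoters, 0 in the body and 1 at 5 to 50 kb, with widths of 6.25 kb at Cd79b and 1.71 kb at Cr2. Promoter H3K4me1 was found at 1 gene within 1 kb, H3K4me3 in the body at 3 genes by midpoint, and H3K4me1 at 5 to 50 kb at 4 genes when the nearest start had to be their own. Merging peaks within 1 kb widened Cd79a to 13.4 kb, Cd22 to 7.31 kb, Syk to 13.8 kb and Plcg2 to 5.8 kb. The cause of these shifts was not tested. Leaving out 1 library gave a promoter count of 9 for H3K4me3 and 5 to 6 for H3K4me1. A count over fewer libraries can only stay or rise, so these values do not test how stable it is. Shares over all genes were not computed for the 1 kb, midpoint, nearest-start and leave-out settings, so these counts have no background beside them. Pairing same-numbered libraries as a replicate block cannot change a difference of means, which ran from 3.04 kb at Cr2 to 11.6 kb at Syk. The exact sign-flip p was 0.25 at each gene. That is the smallest it can be, and it is fixed where all paired differences share a sign. Deviations of same-numbered libraries correlated at 0.0271, 0.00832 and 0.0116, so the numbers were not taken to pair samples. The number of fragments, 6 at the median H3K4me1 summit, limits what H3K4me1 can show.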
